A study of Mus musculus with 6 samples.

Results

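The mouse chromosome 15 interval around Top1mt, the gene of the mitochondrial type I topoisomerase, was examined gene by gene in natural killer (NK) cells. Members were the genes whose locus in the deposited tables begins from 74.5 Mb to below 76.5 Mb on chromosome 15 of the mm10 genome, without the Ly6 surface protein genes that lie in the same interval. The rule gave 63 members of the 24343 genes in the tables. The interval was chosen because Top1mt and its neighbour Rhpn1 were lower after IL-15 than after IL-2 in these same libraries. All values of that comparison below are therefore a description, and none of them is a test of whether the interval stands apart.

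The cells were NK cells from the spleens of female C57BL/6 mice, sorted as NK1.1+ NKp46+ CD3- and negative for the CD1d tetramer, which binds NKT cells. Mice had received cytokine complexes of IL-15 (IL-15C, 3 libraries) or of IL-2 (IL-2C, 3 libraries). The labels give no age, dose or time and do not say whether each library came from its own mouse, so the spread between libraries may be technical. Untreated cells were not analysed here, and each difference is between the 2 treatments. Expression is given as FPKM, the fragments per kilobase of transcript scaled to the fragments of the library.

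Type I topoisomerases cut and reseal a single DNA strand and so release the twist that builds up when DNA is copied or transcribed. The product of Top1mt does this in mitochondria, which carry their own small circular genome; its relative Top1 acts in the nucleus. Rhpn1 encodes rhophilin 1, a scaffold protein. Neighbouring genes can share enhancers and chromatin domains, or be regulated separately, and the question here was whether the lower level of Top1mt and Rhpn1 was shared along the chromosome.

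Members on the 2 sides of Zfp41 differed in how often they passed the minimum level of the fit. Of the 19 members that lie before Zfp41, 1 reached a mean of 1 FPKM over the 6 libraries, whereas 29 of the 44 members from Zfp41 onward did. The rule leaves out 9 Ly6 genes that also lie before Zfp41, of which 5 reached that level; Ly6c2 and Ly6e, with means of 248 and 159 FPKM, exceeded every member. The stretch is therefore not silent as a whole. The one member there above the level was Them6, at 8.93, 7.45 and 7.46 FPKM after IL-15C against 7.56, 7.61 and 6.86 after IL-2C. Among the members below that level were Cyp11b1 and Cyp11b2, which make adrenal steroids, and Psca, Slurp1, Lypd2 and Gml2, which encode small surface or secreted proteins of the Ly6 type; each was listed at 0 in all 6 libraries. Gpihbp1, which carries lipoprotein lipase in capillaries and is the last member before Zfp41, was also listed at 0 throughout.

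In all, 16 members were listed at 0 in every library and 17 more had some signal but did not reach the mean of 1 FPKM needed for the fit. The highest single value among those 33 genes was 0.849 FPKM. The 30 members that were tested are thus not all members. The filter fell in a gap: the lowest tested member was Mafa, at a mean of 1.56 FPKM, and the highest untested were Fam83h at 0.729 and Jrk at 0.693. At the edges of the interval, Adgrb1, the first member, and Mroh5, the last gene before it, were at 0. Hsf1, the last member, differed by -0.07 ± 0.06 (SE) and Dgat1, the first gene beyond, by -0.14 ± 0.06 on the log2 scale.

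**Figure D1:**
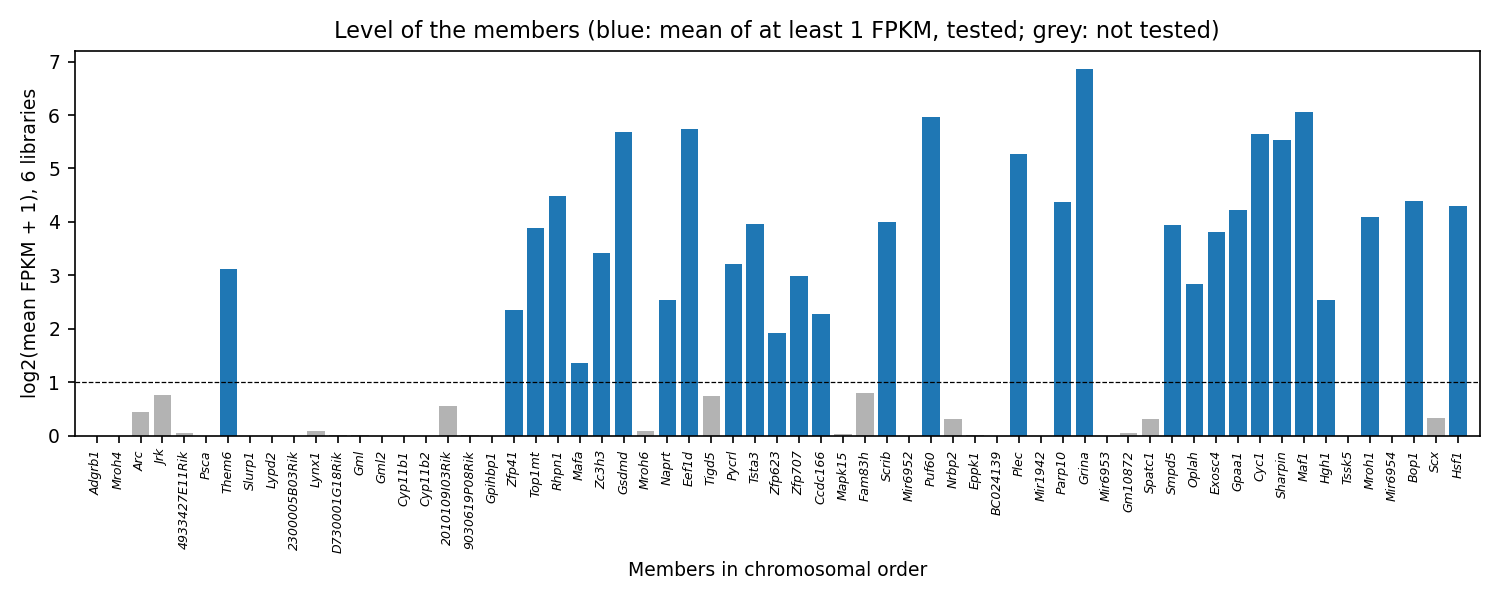
Level of the 63 members in chromosomal order, as log2 of the mean FPKM over the 6 libraries plus 1, with the fit's minimum of 1 FPKM as a dashed line. Blue bars are the 30 tested members and grey bars the 33 others; Them6 is the tested gene among the 19 members before Zfp41, and Grina is the tallest bar.

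The 5 most abundant members did not include Top1mt or Rhpn1. Grina, which encodes a membrane protein of the TMBIM family, led with 114, 112 and 123 FPKM after IL-15C against 116, 116 and 110 after IL-2C. It was followed by Maf1, a repressor of RNA polymerase III, at a mean of 65.5 FPKM over the 6 libraries, and by the splicing factor gene Puf60 at 61.4. The translation elongation factor gene Eef1d averaged 52.3 FPKM and Gsdmd, whose product forms the membrane pores of pyroptosis, 50.5. Top1mt and Rhpn1 averaged 13.8 and 21.3 FPKM.

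Top1mt had the lowest log2 difference of the tested members. Its level was 8.72, 9.52 and 8.87 FPKM after IL-15C against 21.0, 17.8 and 16.9 after IL-2C. The highest IL-15C library lay well below the lowest IL-2C library. The means were 9.04 ± 0.426 (SD, n = 3) and 18.5 ± 2.17, a 2.05-fold higher level in IL-2C. On the log2(FPKM + 1) scale, which understates the change of low genes, the difference of IL-15C minus IL-2C was -0.96 ± 0.07 (SE). The locus spans 75657033 to 75678790 on the minus strand. GENCODE places an antisense transcript, Gm15945, inside it, and since no source used here states that counting used strand, reads of the pair cannot be told apart.

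Rhpn1 follows after a gap of 25498 bases, at 75704288 to 75714419 on the plus strand, so that both genes are transcribed away from the gap between them. Its level was 14.1, 16.4 and 16.1 FPKM after IL-15C against 31.4, 26.5 and 23.1 after IL-2C. The groups did not overlap, and the IL-2C libraries were spread more widely than those of IL-15C. The means were 15.5 ± 1.24 (SD, n = 3) and 27.0 ± 4.17, a 1.74-fold higher level in IL-2C and a log2 difference of -0.76 ± 0.10 (SE).

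The next member is Mafa, at 75746843 to 75747922 on the minus strand, which encodes a transcription factor best known as an activator of the insulin gene in pancreatic beta cells. It was faint, at 1.30, 1.49 and 1.11 FPKM after IL-15C against 1.88, 1.92 and 1.65 after IL-2C. Here too the groups did not overlap. Its log2 difference was -0.29 ± 0.08 (SE) and did not pass the limma threshold, an adjusted p of 0.05 over all genes tested. With a pseudocount of 0.1 in place of 1 it was -0.46 ± 0.13. The fragment numbers implied by the deposited intervals were 55, 63 and 48 after IL-15C against 76, 91 and 85 after IL-2C, so the value rests on few fragments. The IL-2C level was 1.39-fold higher in FPKM and 1.42-fold higher as a share of the library's fragments. In fragments the log2 difference was -0.37 ± 0.12, with separated groups, and did not pass the threshold.

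The members on either side of these 3 genes differed little. Zfp41, a zinc finger gene 31733 bases before Top1mt, had 3.91, 4.04 and 4.09 FPKM after IL-15C against 4.12, 4.15 and 4.46 after IL-2C. Its groups were barely separated, and the log2 difference was -0.06 ± 0.05 (SE). On the other side lies Zc3h3, which encodes a zinc finger protein of mRNA export and 3′ end processing. Its locus lies 6525 bases after Mafa by coordinate. As Zc3h3 is on the minus strand, the end nearest Mafa is its 3′ end. Zc3h3 had 9.25, 9.31 and 9.57 FPKM after IL-15C against 10.2, 10.2 and 9.79 after IL-2C, a log2 difference of -0.09 ± 0.04. The next gene, Gsdmd, overlapped between groups at 49.8, 48.5 and 50.4 FPKM against 54.5, 51.6 and 48.3, with -0.05 ± 0.05. The median over all genes tested was -0.04, close to the values of Zfp41, Zc3h3 and Gsdmd.

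**Figure D2:**
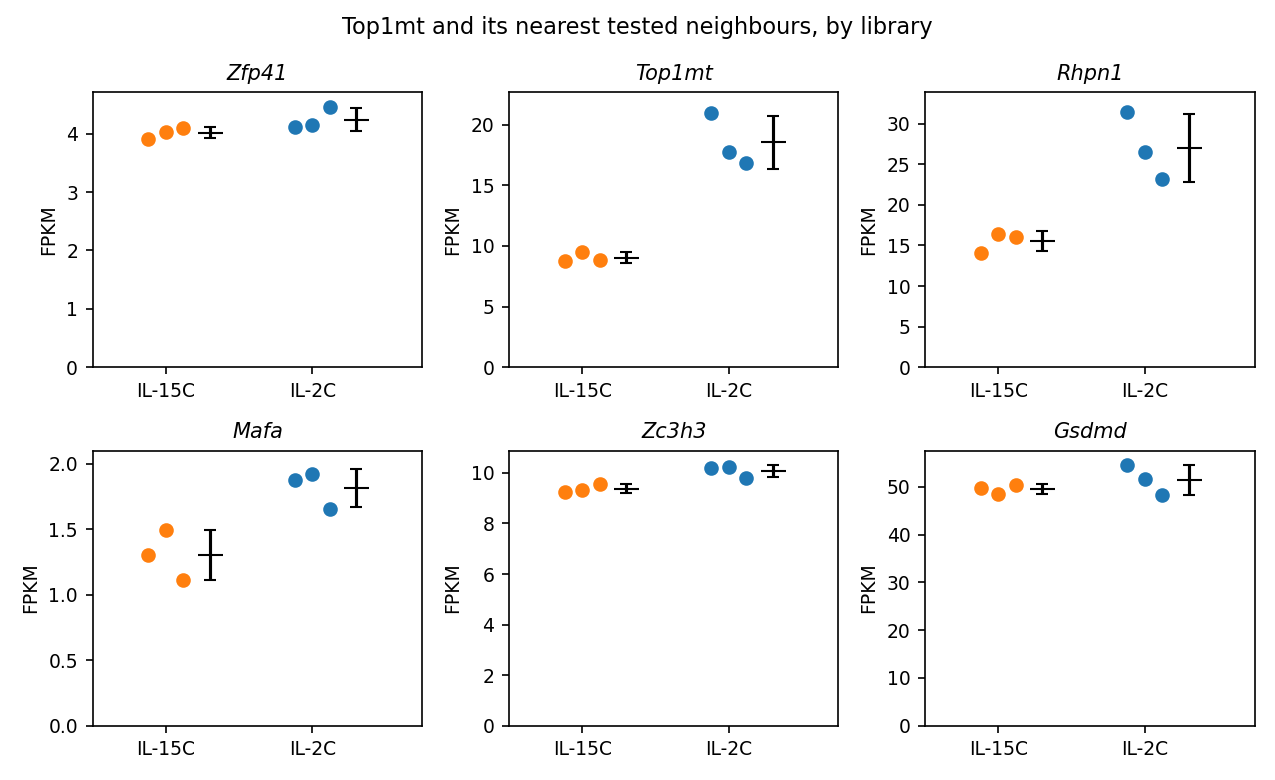
FPKM of Top1mt and 5 neighbours in each library, with points for the 3 IL-15C and 3 IL-2C libraries, a bar for the group mean and whiskers for 1 SD; each axis starts at 0. Top1mt lies at 8.72 to 9.52 in IL-15C and 16.9 to 21.0 in IL-2C, while the groups of Gsdmd overlap.

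Members were next grouped by the distance of their start from that of Top1mt, where start is the lowest coordinate on either strand. The 4 tested neighbours within 100 kb (Zfp41, Rhpn1, Mafa and Zc3h3) had log2 differences from -0.76 to -0.06. Top1mt and Zc3h3 lie on the minus strand, so their transcripts begin at the other end of the locus, at 75841908 for Zc3h3. The 3 between 100 and 250 kb ranged from -0.10 to 0.12. Within this band Naprt, which makes NAD from nicotinic acid, had 5.60, 4.84 and 4.70 FPKM after IL-15C against 5.31, 4.13 and 4.32 after IL-2C, the opposite sign to Top1mt, with overlapping groups and 0.12 ± 0.09 (SE). The 7 between 250 and 500 kb ranged from -0.14 to 0.08 with a median of -0.06, and the 15 farther away from -0.21 to 0.19 with a median of -0.07. Beyond 100 kb, then, the tested members lay between -0.21 and 0.19. Counted from the lowest log2 difference, Top1mt and Rhpn1 were at positions 3 and 7 of all 9831 tested genes. Few genes anywhere could match them, so nothing is read from their distance to the other members.

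**Figure D3:**
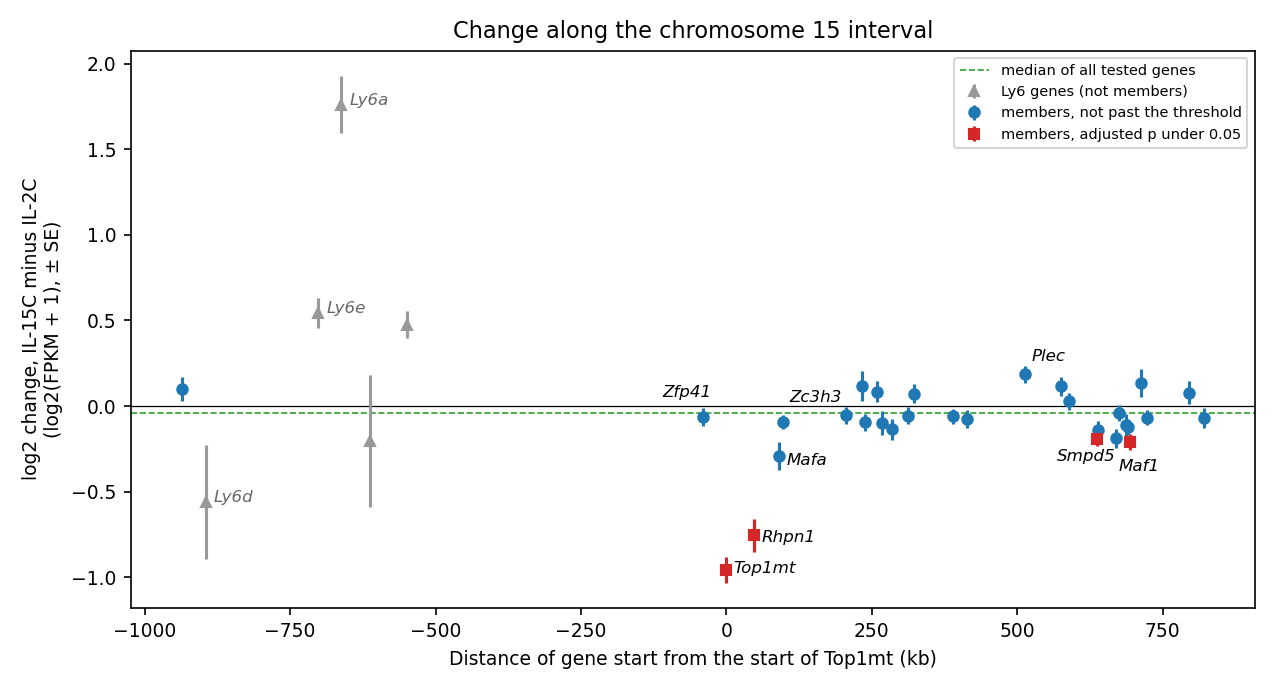
Log2 difference of IL-15C minus IL-2C on the log2(FPKM + 1) scale, with its SE, against the distance of each gene's start from that of Top1mt in kb. Start is the lowest coordinate on either strand. Red squares are the 4 members past the limma threshold, blue circles the other 26 tested members and grey triangles Ly6 genes; Top1mt at -0.96 and Rhpn1 at -0.76 lie side by side, and the dashed line is the median of all tested genes at -0.04.

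Over the whole interval 4 of the 30 tested members were lower in IL-15C at a limma adjusted p under 0.05 and 0 were higher, with 26 not past the threshold. Of all 9831 genes tested, 4.72% were lower and 1.72% higher by the same rule. As the interval was chosen from this comparison, nothing is read from the count of members against that share. A common library median turned the split over all genes from 169 higher and 464 lower to 325 and 207. At an unadjusted limma p under 0.05, 9 members were lower and 1 was higher, beside 20.4% and 6.48% of all tested genes. The 3 libraries of each group were fully separated for 12 members lower in IL-15C and 1 higher, beside 25.1% and 8.15% of all tested genes. The median log2 difference was -0.07 over the 30 members and -0.04 over all tested genes. Without Top1mt and Rhpn1, the median of the other 28 was -0.07 and their SD 0.118, beside an SD of 0.147 over all tested genes.

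The other members past the threshold were Maf1 and Smpd5, which start 694 and 637 kb from Top1mt and differed far less than it. Maf1, at 76351294 to 76354378, had 59.9, 62.7 and 59.4 FPKM after IL-15C against 72.8, 70.9 and 67.2 after IL-2C, a log2 difference of -0.21 ± 0.05 (SE). Smpd5, the gene of a sphingomyelinase, had 12.95, 13.4 and 13.7 FPKM after IL-15C against 15.3, 15.4 and 15.4 after IL-2C, a difference of -0.19 ± 0.04. Both were separated between groups, with gaps that were small beside their level. Smpd5 overlaps Oplah, which encodes the 5-oxoprolinase of glutathione turnover and lies on the opposite strand, and reads of the shared stretch cannot be told apart.

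The 4 calls differed in how often they passed under other settings. Top1mt passed under all 16 alternative settings, with log2 differences from -1.04 to -0.74. Rhpn1 passed under 14 and missed the threshold without IL-2C replicate 2, where its log2 difference was -0.76, and when no filter on low genes was used. Maf1 did not pass with no filter, in implied fragments, or when IL-15C replicate 2 or 3, or IL-2C replicate 1 or 2, was left out. Smpd5 did not pass under 10 settings, namely no filter, a common library median, TPM, quantile scaling, implied fragments, and without IL-15C replicate 2 or 3 or any of the IL-2C replicates. In the fits that lacked a library and lost the call, the log2 differences stayed close to the full values, from -0.23 to -0.18 for Maf1 and from -0.21 to -0.19 for Smpd5. The genes called lower over the whole table fell at the same time, from 464 to between 15 and 146 in the fits that lost Maf1. In implied fragments the difference of Smpd5 was -0.11 ± 0.05 (SE).

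FPKM divides fragments by transcript length, and for a gene with several transcripts the length used depends on which transcripts the program assigns the fragments to. The deposited interval of each value, if taken to reach 2 Poisson SD to each side, implies a fragment number that can be set beside it. For Top1mt these numbers were 828, 954 and 895 after IL-15C against 1993, 2011 and 1955 after IL-2C. As a share of the library's fragments they were 2.09-fold higher in IL-2C, against 2.05-fold in FPKM, and the groups were far apart on both scales.

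The Rhpn1 gene differed between the scales. Its fragment numbers were 981, 1105 and 1086 after IL-15C against 1438, 1434 and 1376 after IL-2C. As a share of the library's fragments the IL-2C level was 1.26-fold higher, against 1.74-fold in FPKM, and the log2 difference was -0.32 ± 0.07 (SE) in place of -0.76 ± 0.10. The groups remained separated on the fragment scale, by a much smaller distance. On that scale the difference of Mafa, -0.37 ± 0.12, was no smaller than that of Rhpn1, but it rests on few fragments and did not pass the threshold.

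The quotient of fragment share over FPKM has the unit of a length in kb. It would follow the length used if the deposited intervals held counting error only. It was 2.96, 2.75 and 2.75 for Rhpn1 after IL-15C against 1.93, 2.00 and 2.18 after IL-2C. Its log2 difference of 0.47 was reached or passed by 3 of the 9828 tested genes with a value, Rhpn1 included. The others were Rps27, at 0.72, and Pet117, at 9.46. The value of Pet117 is too large for a difference of transcript length, so the quotient does not measure length alone. For Top1mt the same difference was -0.03 and over all these genes the median was 0.00. The authors' library total is not known, so the level of the quotient is not a transcript length. GENCODE lists several Rhpn1 transcripts, among them forms with a retained intron. The deposited tables hold 1 value a gene, and the interval can also widen when fragments are hard to assign, so the part of transcript choice in the Rhpn1 value was not tested.

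Maf1 also differed between the scales, but unlike Rhpn1 it did not stay separated or past the threshold in fragments. The fragment numbers of Maf1 were 2280, 2434 and 2225 after IL-15C against 2396, 2546 and 2591 after IL-2C, which as shares of the library gave overlapping groups and a log2 difference of -0.02 ± 0.05 (SE). Its quotient was 1.62, 1.58 and 1.52 after IL-15C against 1.39, 1.33 and 1.42 after IL-2C, without overlap. A quotient difference as large as that of Maf1 was found in 0.936% of the tested genes. On the fragment scale 3 members passed the limma threshold as lower in IL-15C, namely Top1mt, Rhpn1 and Exosc4, and 0 as higher, where 4.89% and 2.03% of all tested genes did.

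**Figure D4:**
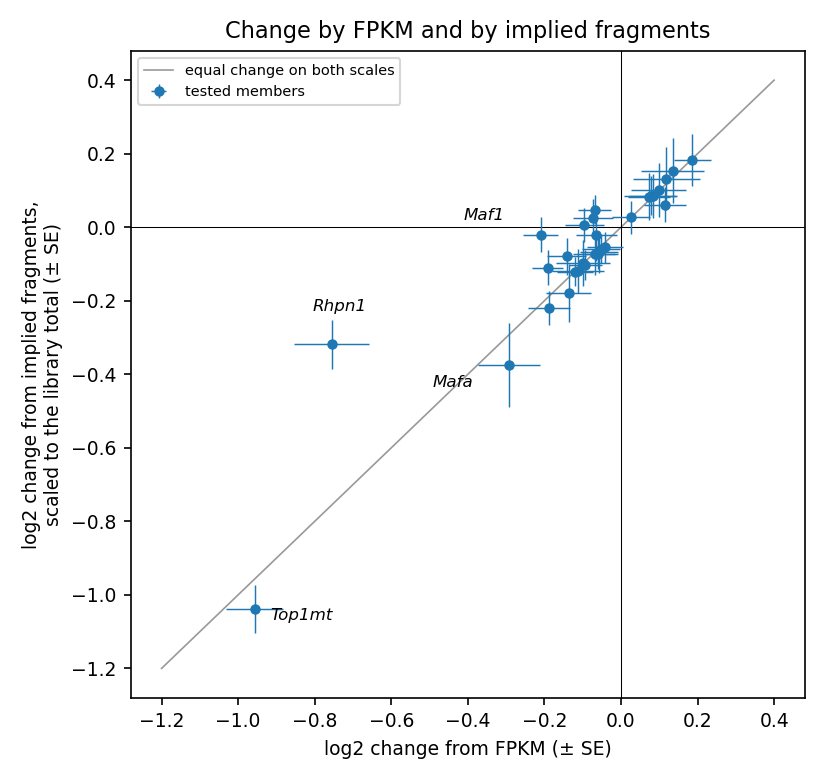
Log2 difference of IL-15C minus IL-2C for the 30 tested members from FPKM (horizontal) and from implied fragments scaled to the library total (vertical), with SE; the grey line marks equal values. Top1mt lies near the line at -0.96 and -1.04, whereas Rhpn1, at -0.76 and -0.32, and Maf1, at -0.21 and -0.02, lie above it.

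The remaining members are given by role. Of 8 mitochondrial and metabolic genes 6 were tested, and Top1mt was the one past the threshold. Cyc1, the cytochrome c1 subunit of respiratory complex III, had 51.9, 42.8 and 45.8 FPKM after IL-15C against 52.6, 51.0 and 48.2 after IL-2C, with overlapping groups and a log2 difference of -0.11 ± 0.07 (SE). Oplah had -0.14 ± 0.05, Tsta3, which makes GDP-fucose, -0.10 ± 0.07, and Pycrl, an enzyme of proline synthesis, 0.08 ± 0.06.

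All 6 genes grouped under RNA and protein synthesis, where Gpaa1 with its role in protein modification was also placed, were tested, and 0 passed in FPKM. Exosc4, a subunit of the RNA exosome, had 12.3, 12.2 and 11.6 FPKM after IL-15C against 14.9, 13.8 and 13.01 after IL-2C. Its groups were separated, with -0.19 ± 0.05 (SE) in FPKM and -0.22 ± 0.05 in implied fragments. Eef1d and Puf60 had -0.10 ± 0.05 and -0.07 ± 0.05 in FPKM but 0.01 and 0.03 in implied fragments, so no direction is given for them. Bop1, a ribosome assembly factor, had 0.08 ± 0.07, Gpaa1, a subunit of the enzyme that attaches GPI anchors, -0.04 ± 0.05, and Hgh1 0.13 ± 0.08.

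The 4 tested genes of cell death and inflammation ranged from -0.12 to 0.11, and 0 passed. Besides Gsdmd and Grina these were Sharpin, a subunit of the linear ubiquitin ligase of NF-kappaB signalling, at 42.6, 42.6 and 45.0 FPKM after IL-15C against 48.3, 48.5 and 45.0 after IL-2C, and Parp10, a mono-ADP-ribosyltransferase, with 0.11 ± 0.05 (SE). Of 3 tested polarity and cytoskeleton genes Rhpn1 was past the threshold. Plec, which encodes the cytoskeletal linker plectin, was the tested member with the highest log2 difference, 0.19 ± 0.05. It had 41.3, 39.5 and 38.7 FPKM after IL-15C against 33.0, 36.2 and 35.6 after IL-2C, with the groups apart, and passed under 2 of 16 alternative settings. Scrib, a polarity scaffold gene, had -0.06 ± 0.04.

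The 7 tested zinc finger and other transcription factor genes lay below 0, as did 64.7% of all tested genes. They ranged from -0.29 for Mafa to -0.06 for Zfp707, and Maf1 was past the threshold in FPKM. Zfp623 had 2.50, 2.55 and 2.70 FPKM after IL-15C against 2.82, 3.11 and 2.89 after IL-2C, with -0.14 ± 0.06 (SE). Hsf1, the main regulator of the heat shock response, overlapped between groups. The members with no assigned role and not yet named, Ccdc166 and Mroh1, had 0.07 ± 0.05 and -0.07 ± 0.04; Mroh1, which overlaps Bop1, had 0.05 in implied fragments.

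Of the 9 Ly6 genes lying among the members before Zfp41, 5 were tested; 3 were higher in IL-15C by the limma threshold, the opposite direction to Top1mt, 0 were lower and 2 did not pass, where 1.72% of all tested genes were higher and 4.72% lower. Ly6a had 11.1, 7.19 and 7.59 FPKM after IL-15C against 1.44, 2.51 and 1.56 after IL-2C, and its log2 difference was 1.76 ± 0.17 (SE), with 0.54 ± 0.09 for Ly6e and 0.48 ± 0.08 for Ly6c2; Ly6e differed by 0.25 in implied fragments. The 2 that did not pass had values below 0, at -0.56 ± 0.33 for Ly6d and -0.20 ± 0.38 for Ly6c1. Ly6c1 and Ly6c2 are close copies, and their values are uncertain where reads could be split between them.

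Genes elsewhere in the genome were taken from a list of topoisomerases, nuclear ones included, and factors that copy, transcribe or maintain mitochondrial DNA. Of 24 tested, 4 were lower and 1 higher in IL-15C by the limma threshold and 19 did not pass, beside 4.72% and 1.72% of all tested genes. The median log2 difference of the list was -0.09, beside -0.04 over all tested genes. The lower genes were Polg and Polg2, the subunits of the mitochondrial DNA polymerase, with -0.23 ± 0.06 (SE) and -0.23 ± 0.05, and 2 members of the Mterf gene family. These were Mterf1a and Mterf3, with -0.23 ± 0.04 and -0.21 ± 0.04. Mterf1a has a near-identical copy, Mterf1b, and its value is uncertain. Top2a, the DNA topoisomerase of dividing cells, was higher by 0.34 ± 0.05. In implied fragments none of these 4 lower genes passed, and Polg was at -0.03 ± 0.05, Polg2 at -0.23 ± 0.07, Mterf1a at -0.20 ± 0.06 and Mterf3 at -0.12 ± 0.05. On that scale the list's called genes were Mgme1, a mitochondrial exonuclease gene, at -0.36 ± 0.09, and Top2a at 0.41 ± 0.05. The nuclear relative Top1 averaged 21.4 FPKM ± 1.70 (SD, n = 3) against 22.0 ± 0.650, with -0.04 ± 0.06 (SE). The count of lower genes was 0 without IL-15C replicate 2, IL-15C replicate 3, IL-2C replicate 1 or IL-2C replicate 2, and that of higher genes was 0 without IL-2C replicate 1 or 2. The log2 differences of the list ran from -0.34 to 0.34. Top1mt, on which the interval was chosen, was at position 3 from the lowest of 9831 tested genes. Its distance from the list is therefore not read as a result.

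Summed over genes, the implied fragments came to between 23543141 and 27229145 a library. The 6 NK cell markers summed to 7494 to 8635 FPKM per library with overlapping groups and 0 members called. Sums of 6 B cell markers were 1.04 to 9.25 FPKM in IL-15C and 3.03 to 14.8 in IL-2C, those of 7 neutrophil markers 39.3 to 108 and 39.7 to 58.5, and those of 6 T cell markers 50.6 to 71.7 and 52.5 to 57.4. The sums also overlapped for 6 monocyte, 5 erythroid and 4 platelet markers, with 0 genes called in each of these lists and no marker at 0 in all libraries. The summed level of the 5 dendritic cell markers was 237 to 261 FPKM in IL-15C and 199 to 211 in IL-2C, without overlap; 2 of the 5 were tested, and Itgax, which NK cells also express, was called higher. Their part in the values above was not tested. In such bulk samples, fewer cells expressing a gene and less RNA per cell cannot be told apart.

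The authors' deposited table of group values gave Top1mt 12.3 FPKM after IL-15C against 24.4 after IL-2C, and Rhpn1 21.0 and 35.5. In the authors' deposited table these were the 2 of 30 tested members whose group intervals did not overlap, both lower in IL-15C. Over all 9831 tested genes in the authors' deposited table, 0.224% had separate intervals with the lower value in IL-15C and 0.590% with the higher, and nothing is read from the members' count, since the interval was chosen from this contrast. The table was made from the same libraries, so it adds no independent support.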

How the data were processed

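RNA of sorted NK cells was sequenced in 6 libraries, 3 per treatment, grouped by their titles. The build was mm10 and the tools named were Cufflinks 2.2.1 and TopHat2 2.0.13, per the submitters' processing notes; no source here names the gene annotation. Per the file headers, the authors deposited one FPKM estimate a gene with interval bounds for each library, and a table of FPKM by group. No count test was used on these FPKM values. Genes on several rows (280) had their rows summed, and 10 with a failed estimate were dropped. limma 3.58.1 in R 4.3.3, with an intensity trend, was run on log2(FPKM + 1) over the 9831 genes with a mean of at least 1 FPKM, two-sided, with Benjamini-Hochberg adjustment and a threshold of 0.05; it was tested on simulated data. Fragment numbers were derived from the deposited bounds by taking these to hold counting error only, which was not tested. Positions are those of the files, written 1-based; strands are from GENCODE M21 on the same build and matched 61 of 63 members. Tables and plots used Python 3.11.15, pandas 2.3.3, numpy 2.4.6 and matplotlib 3.10.9. Genes described in full were the called members, tested members within 250 kb of Top1mt, the 5 most abundant and the extremes. The members and lists were chosen with earlier results of these data known. Alternatives were pseudocounts of 0.1 and 5, other filters, scalings, spreads, a replicate block, implied fragments and leaving out each library.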

Additional observations from a re-analysis of the deposited data

How the results depend on the processing

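The count of members lower in IL-15C was 4 and ranged from 1 to 4 when each library was left out in turn. It was 1 with no filter on low genes and 3 to 5 under the other alternatives. With no filter 16313 genes were tested, and over that whole table only 9 were lower and 6 higher. The count of higher members was 0, and 1 with a minimum mean of 5 FPKM or a common library median, Plec in each case. For the mitochondrial DNA list the lower count of 4 was 0 with no filter, 1 with a common library median, quantile normalization or implied fragments (Mgme1 in the last, which is not among the 4), 2 with TPM, and 0 to 3 with a library left out. The higher count of 1 was 0 with no filter, and 0 to 1 with a library left out. The cause of these changes was not tested. Some of these fits held fewer libraries or more genes. The median of the members minus that of all genes was -0.03, and moved by less than its SD between libraries of 0.019 under all 16 alternatives, as did the median of the tested neighbours within 250 kb minus that of all genes, -0.05, with an SD of 0.039; these were 7 genes, but 9 with no filter and 4 with a minimum of 5 FPKM. Deviations of same-numbered libraries from their group mean correlated at -0.03, -0.16 and -0.02 across genes, and those of other combinations at -0.14 to 0.18. With 3 libraries a group these values cannot tell whether libraries were paired by design. With the replicate block the lower members were again 4, the higher 0, and the list counts 2 and 1; all genes called were 171 higher and 346 lower against 169 and 464, and leaving out a library gave 14 to 176 higher and 15 to 575 lower. Among values of single members, 439 kept their side of the threshold or moved by less than the spread between libraries, 18 lost the threshold, 4 gained it, and 13 moved farther. Mafa, at 48 to 91 implied fragments a library, gained the threshold when the intensity trend was dropped.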
